A study of Nannospalax ehrenbergi and Mus musculus with 25 samples.

Results

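The immediate early transcription factor genes Fos, Fosb, Fosl1, Fosl2, Jun, Junb, Jund, Egr1, Atf3 and Ier2 were followed through 25 RNA-seq libraries of neck muscle and tumor tissue. They were chosen by name, without use of their values, as the Fos and Jun families and 3 genes that respond beside them. Earlier results of these data were known at that time. All 10 were found in the table of the blind mole rat Spalax, which lists 27988 genes, and in that of the mouse, which lists 47593. The Spalax libraries comprise 4 of untreated control animals and 4 of tolerant animals, which grew no tumor after the carcinogen. Tumor-bearing Spalax gave 2 libraries each of granuloma (a benign growth) and fibrosarcoma from the injected side (IS), where the tumor lay, and the same numbers from muscle of the uninjected side (UIS). The mouse gave 3 libraries each of control, UIS and IS, the tumors being fibrosarcomas. 3-methylcholanthrene (3MCA), a polycyclic hydrocarbon that damages DNA and induces sarcomas, was given once under the skin of the neck, at 1 mg to Spalax and 200 µg to mice. Spalax were wild-caught animals with an estimated age of 2 to over 10 years, and the C57BL/6 mice were 3 to 4 months old.

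Tolerant Spalax were sampled on the injected side at 18 or 30 months after injection and control Spalax on the uninjected side. Granulomas were sampled at 14 (600) and 16 (976) months, the Spalax fibrosarcomas at 18 (2240) and 30 (2230) months and the mouse tumors at 11, 12 and 14 weeks. All Spalax controls were female, the tolerant animals were 3 males and 1 female, and the tumor-bearing ones were 3 females and the male 2230. All mice were male. In both species the control libraries, and in Spalax the tolerant ones, carried dual indexes, whereas every UIS and IS library carried a single index. Control Spalax were biopsied alive under isoflurane and left to recover, while tumor-bearing animals and control mice were sampled once a higher concentration had stopped their breathing. The anesthesia of the tolerant animals is not given in the sources used here. Immediate early genes are known to respond to handling within minutes, and between Spalax control and tumor-bearing muscle these differences and the group cannot be told apart.

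Immediate early genes are switched on by growth factors, stretch, injury and stress without new protein synthesis, and most of their messages are short-lived. Proteins of the Fos family pair with those of the Jun family to form AP-1, a dimeric factor of the basic leucine zipper (bZIP) type that binds DNA. Fos and Fosb carry strong activation domains, Fosl1 (Fra-1) and Fosl2 (Fra-2) lack the corresponding region, Junb and Jund are weaker activators than Jun, and Atf3 pairs with Jun proteins. Egr1 is a zinc finger factor and Ier2 a small nuclear protein, both induced together with Fos. In muscle, AP-1 genes follow contraction and damage, and in fibroblasts and sarcomas Fosl1 and AP-1 are known for driving genes of matrix breakdown and migration.

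The members of the bZIP type are most alike in the basic region, which contacts DNA, and that stretch of the coding sequence is shown for all 8 of them, since the results below turn on members of 1 family moving apart. Each line gives 60 coding bases of the mouse gene, 5′ to 3′, that begin 7 codons before the asparagine of the conserved basic region, and capitals mark bases that differ from Fos at the same place. The sequences were read from the GENCODE vM21 transcripts (build GRCm38).
Fos: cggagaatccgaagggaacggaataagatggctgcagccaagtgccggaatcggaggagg
Fosb: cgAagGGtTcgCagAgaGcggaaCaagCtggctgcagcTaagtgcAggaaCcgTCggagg
Fosl1: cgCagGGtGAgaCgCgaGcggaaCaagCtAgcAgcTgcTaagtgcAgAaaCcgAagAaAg
Fosl2: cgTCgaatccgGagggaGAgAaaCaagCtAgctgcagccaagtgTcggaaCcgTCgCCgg
Jun: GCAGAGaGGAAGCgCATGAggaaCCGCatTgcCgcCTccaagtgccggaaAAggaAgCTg
Junb: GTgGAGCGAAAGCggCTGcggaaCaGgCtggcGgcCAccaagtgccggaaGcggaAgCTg
Jund: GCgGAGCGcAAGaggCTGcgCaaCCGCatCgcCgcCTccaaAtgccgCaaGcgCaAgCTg
Atf3: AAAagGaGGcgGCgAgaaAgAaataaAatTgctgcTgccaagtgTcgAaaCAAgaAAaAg

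Fosl1 differed from Fos at 20 of the 60 bases but shared 17 of the 20 encoded residues, Fosb shared 18 and Fosl2 19. Each Jun protein shared 9 of 20 with Fos and Atf3 shared 14. The stretches lie on chr12:85475616-85475675 (Fos, plus strand), chr7:19306583-19306642 (Fosb, minus), chr19:5454437-5454496 (Fosl1, plus), chr5:32150445-32150504 (Fosl2, plus), chr4:95050441-95050500 (Jun, minus), chr8:84977569-84977628 (Junb, minus), chr8:70699850-70699909 (Jund, plus) and chr1:191172399-191172458 (Atf3, minus). In the 4 Fos genes and Atf3 the stretch sits in exon 3 of 4, and in Jun, Junb and Jund in the single exon. Despite this likeness the longest run of bases shared by transcripts of any pair of members was 20 (Jun and Jund), against reads of 101 sequencing cycles, so in mouse a whole read that matches exactly is not shared between members. In the mouse annotation, exons of Fosl1 overlap 1163 bases of Ccdc85b on the opposite strand, those of Jund 877 bases of Gm11175, those of Jun 232 bases of Junos and those of Junb 173 bases of Prdx2. Whether the counting used strand is not given in the sources used here, so reads of these pairs may have been mixed, most of all for Fosl1 and Jund.

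Values are normalised read counts, the reads of a gene divided by 1 size factor per library. Libraries held 17025447 to 23386729 reads in Spalax and 22143060 to 31179183 in mouse, and a value of 10 rested on 6.95 to 19.3 reads. In Spalax the summed value of 6 skeletal muscle markers was 751400.3 to 2691429.9 in muscle libraries and 361 to 5828 in tumors. In mouse the sum of 9 markers was 997958 to 3845737 in muscle and 161 to 55832 in tumors. The first principal component separated tumors from muscle in both species, with tolerant 2251 between them (score 23.8, other Spalax muscle at most -58.3, tumors at least 188). Granuloma UIS 976 and mouse UIS 512 lay apart on the second component (136 and 146). The main differences that rest on these libraries are also given without them.

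**Figure D1:**
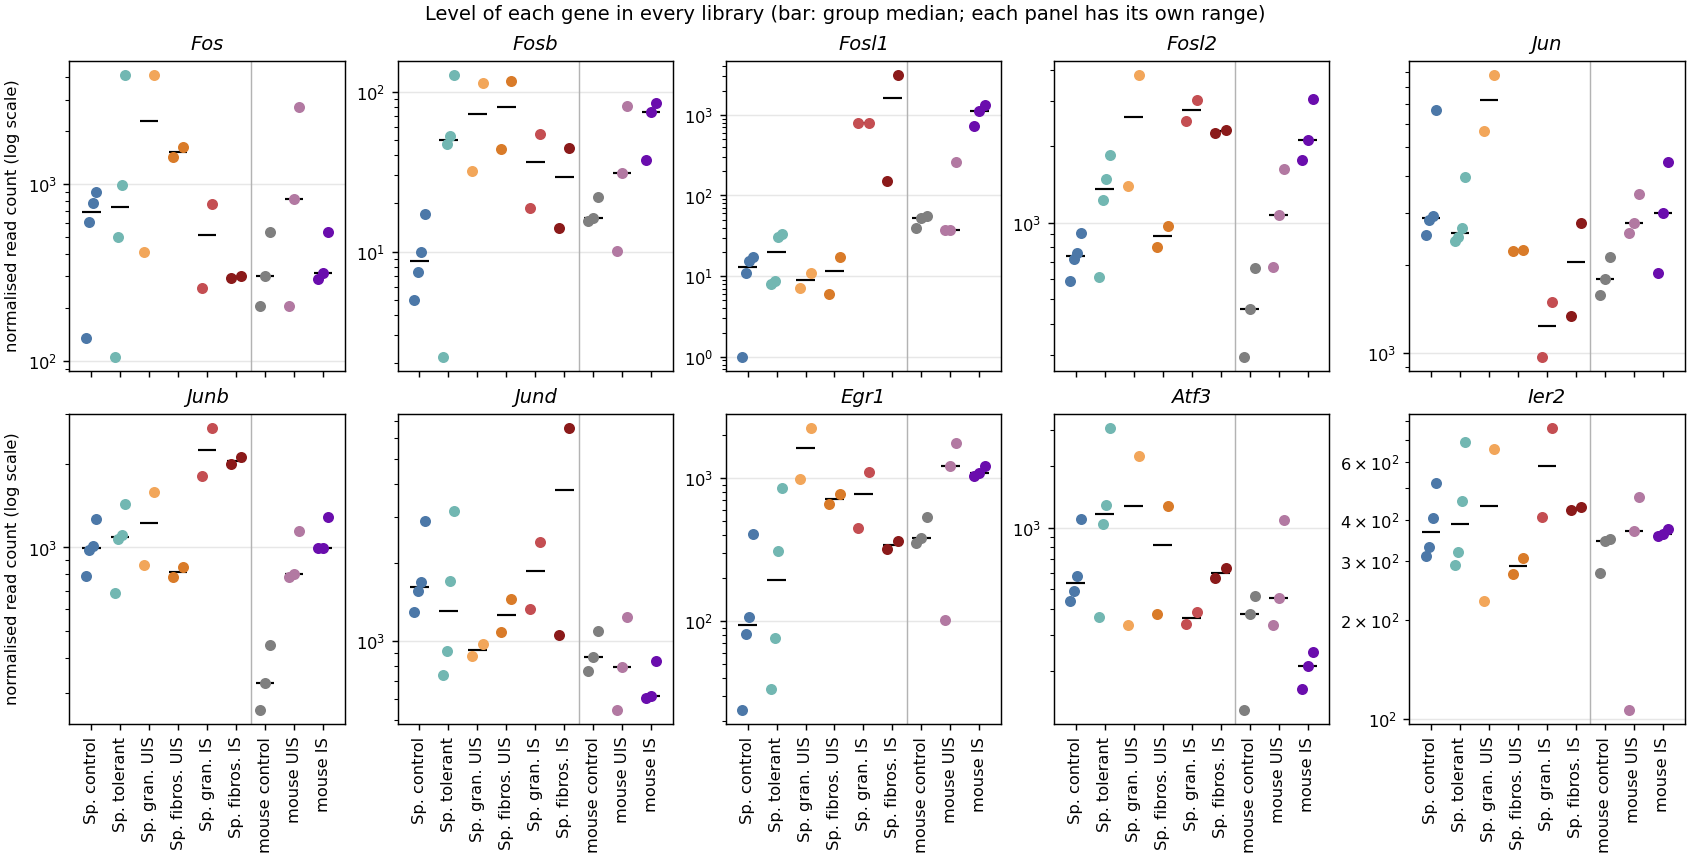
Normalised read count (log axis) of each of the 10 genes in all 25 libraries, as 1 point per library with a bar at the group median; Spalax groups stand left of the grey line and mouse groups right of it. Fosl1 lies at or below 33.1 in every Spalax muscle library and at or above 151 in every Spalax tumor, while Fos spans 105 to 4120.2 within the tolerant group.

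Fosl1 rose in all 3 tumor types and was the 1 member called in each. In Spalax muscle it rested on few reads. The 4 control libraries held 0.995, 11.0, 15.3 and 17.5, the lowest resting on 1 read, and the tolerant ones 33.1, 30.8, 8.76 and 8.04. UIS muscle held 10.9 and 7.07 in the granuloma animals 600 and 976, and 17.1 and 6.06 in the fibrosarcoma animals 2230 and 2240. The ranges of the Spalax muscle groups overlapped. The tumors were all higher: the granulomas of 600 and 976 held 782 and 785, and the fibrosarcomas of 2230 and 2240 held 151 and 3101. The 2 granulomas were nearly equal, whereas the 2 fibrosarcomas differed widely.

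By limma on log2(value + 1), with Benjamini-Hochberg adjustment over all genes tested, Fosl1 rose in granuloma IS against UIS by 6.33 (SE 0.58, adjusted p = 0.00631), an 80.3-fold difference. Without UIS 976 the rise was 6.05 (adjusted p = 0.036). In Spalax fibrosarcoma it rose by 5.93 (SE 1.57, adjusted p = 0.045), or 60.8-fold. The size of this rise depended on the tumor, being 3.75 without IS 2240 and 8.10 without IS 2230. In these fits the spread came from the UIS libraries alone, so no call is read from them. The call with all libraries of the comparison was lost when genes were not filtered on low values (adjusted p = 0.0698). In mouse, Fosl1 was detected in muscle, at 39.1, 52.2 and 55.3 in control animals 1, 2 and 5. UIS muscle held 37.4 in mouse 512, 259 in mouse 1019 and 37.1 in mouse 1023, and the tumors of those mice held 737, 1107 and 1317. All 3 tumors lay above all muscle, and the UIS library 1019 stood above the rest of the muscle. The difference was 3.82 (SE 0.78, adjusted p = 0.0101), or 14.1-fold, and 3.36 (adjusted p = 0.0294) without UIS 512.

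Fosl1 was higher in IS than in UIS in 7 of 7 tumor-bearing animals, by 2.09 to 8.78 on the log2 scale. By the interaction terms of limma, no difference in this rise was called. The response in Spalax fibrosarcoma minus that in granuloma was -0.40 (SE 1.81, adjusted p = 0.982), and minus that in mouse it was 2.10 (SE 1.77, adjusted p = 0.541). The SEs are wide, so equal responses are not shown. Because the tumors hardly contain muscle fibers, and each library is a bulk sample, fewer cells of a type and less RNA per cell cannot be told apart here or in the tumor comparisons that follow. Markers of other cells moved with the tumors. The summed value of 7 fibroblast genes was 13781 to 38906 in UIS of tumor-bearing Spalax and 116717 to 1838072 in their tumors, and 5 proliferation genes summed to 436 to 1402 and 6159 to 15599. In mouse the fibroblast sum was 5078 to 29307 in UIS and 142021 to 164295 in IS. Their part in the Fosl1 result was not tested.

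Fos, the founding member of its family, went the opposite way in Spalax fibrosarcoma. UIS muscle of 2230 and 2240 held 1417 and 1622 and the tumors 300.4 and 293, with no overlap. The difference of -2.35 (SE 0.23, limma adjusted p = 0.00558) was a fall of 5.1-fold. The call was lost in 1 model over all Spalax libraries (adjusted p = 0.188). In granuloma the UIS libraries themselves were far apart, at 4104 (600) and 412 (976), and the tumors held 773 and 258. The difference of -1.54 (SE 1.17, adjusted p = 0.366) was not called. In mouse, UIS held 204 (512), 2735 (1019) and 819 (1023), and the tumors held 313, 535 and 289, so the groups overlapped and the difference of -1.08 (SE 0.89, adjusted p = 0.356) was not called. Mouse UIS 512 was the lowest UIS library, and without it the difference was -2.03 (adjusted p = 0.0424). Fos was lower in the tumor in 6 of 7 animals, with mouse 512 the exception.

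**Figure D2:**
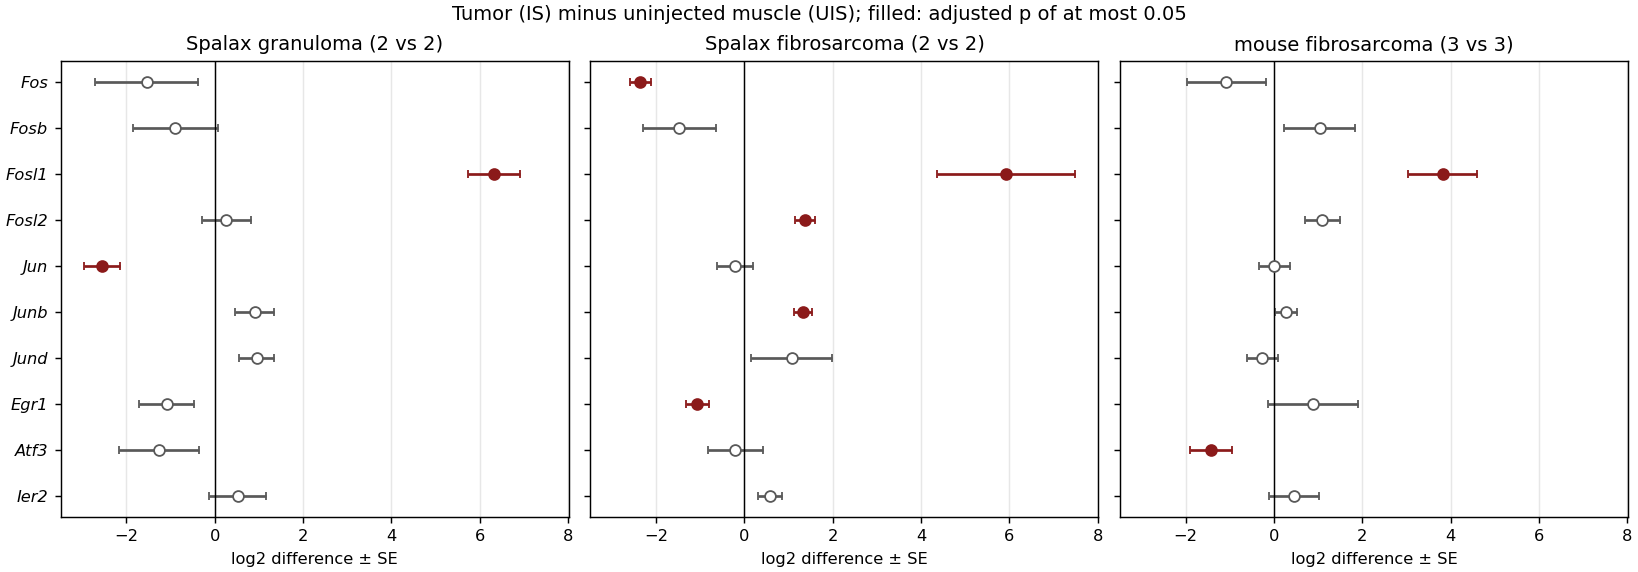
Log2 difference of IS minus UIS (x axis, log2 of value + 1) with its standard error for the 10 genes in Spalax granuloma, Spalax fibrosarcoma and mouse fibrosarcoma, on 1 common axis; filled points have a limma adjusted p of at most 0.05. Fosl1 lies farthest to the right in each panel (6.33, 5.93 and 3.82), while Jun in granuloma (-2.55) and Fos in Spalax fibrosarcoma (-2.35) are the lowest called points.

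Of the 10 members, limma called 2 in granuloma, 5 in Spalax fibrosarcoma and 2 in mouse tumors. Over all genes tested the share called was 24.3% of 14735 genes, 36.3% of 14696 and 45.1% of 15220, so these counts by themselves do not set the members apart. Their libraries did not overlap for 4, 6 and 3 members, where all genes gave 69.8%, 74.3% and 60.2%. The median member differed by -0.31, 0.18 and 0.37, beside medians of -0.01, 0.03 and 0.11 over all genes. The called members moved in both directions and are given one by one. The result in Spalax fibrosarcoma depended on both UIS libraries. Without UIS 2230 or without UIS 2240 none of the 5 members kept its call (adjusted p of 0.105 to 0.339), all 5 kept their direction, and the genes called overall went from 5339 to 18 and 21.

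Fosl2, read at 295 or more in every library, rose in Spalax fibrosarcoma. UIS of 2230 and 2240 held 803 and 967 and the tumors 2316 and 2251, a difference of 1.37 (SE 0.23, limma adjusted p = 0.0149). In granuloma the tumors held 3049 and 2507, but UIS 976 held 3805, above both, and UIS 600 held 1389. The difference there was 0.27 (SE 0.55, adjusted p = 0.746). In mouse all 3 tumors (2121, 1758 and 3068 in 512, 1019 and 1023) were above all UIS libraries (1625, 669 and 1072). The difference of 1.10 (SE 0.39) had an adjusted p of 0.0571, which was 0.0468 with the animal as a block and 0.0251 without UIS 512.

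Fosb, per kilobase the lowest Fos gene in the mouse tumors, was not called in any tumor type. Spalax tumors held 14.1 to 54.4 and their UIS muscle 31.8 to 116, while in mouse the tumors held 37.2 to 85.4 and UIS 10.1 to 81.0. The groups overlapped in each case.

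The makeup of Fos-family reads was described for each library. Shares are of reads and favor long transcripts, so they are compared for 1 gene across libraries and not between genes. Fosl1 took 0.116 to 1.24% of Fos-family reads in the 12 Spalax muscle libraries, 16.8 and 22.0% in the granulomas of 600 and 976, and 5.37 and 54.8% in the fibrosarcomas of 2230 and 2240. Fos took 59.8 and 62.1% in fibrosarcoma UIS and 5.17 and 10.7% in those tumors. In granuloma UIS its share was 73.1% (600) but 9.68% (976), against 16.6 and 7.23% in the tumors. Thus the Fos share in UIS 976 lay within the range of the tumors, while its Fosl1 share did not.

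For mouse, values per kilobase of GENCODE vM21 exon were used to compare levels between genes. The study counted on its own mouse reference, whose gene lengths may differ. Per kilobase, Fosl1 made up 3.79 to 9.28% of the Fos family in UIS, 8.94 to 13.3% in control and 49.9 to 58.8% in IS. Fos made up 31.6 to 84.7% in UIS, 49.0 to 79.2% in control and 11.2 to 23.7% in IS. So by these lengths Fosl1, at 362 to 648 per kilobase, was the highest Fos-family gene in each mouse tumor, above Fosl2 at 182 to 317 and Fos at 123 to 228. Before division by length Fosl2 was higher, at 1758 to 3068 against 737 to 1317 for Fosl1. The order of these 2 genes thus rests on the exon lengths, 9680 bases for Fosl2 and 2033 for Fosl1. Of the latter, 1163 overlap Ccdc85b. In 5 of the 6 mouse muscle libraries Fos was the highest per kilobase, the exception being UIS 512, where Fosl2 made up 61.1%. These shares were described and not tested.

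**Figure D3:**
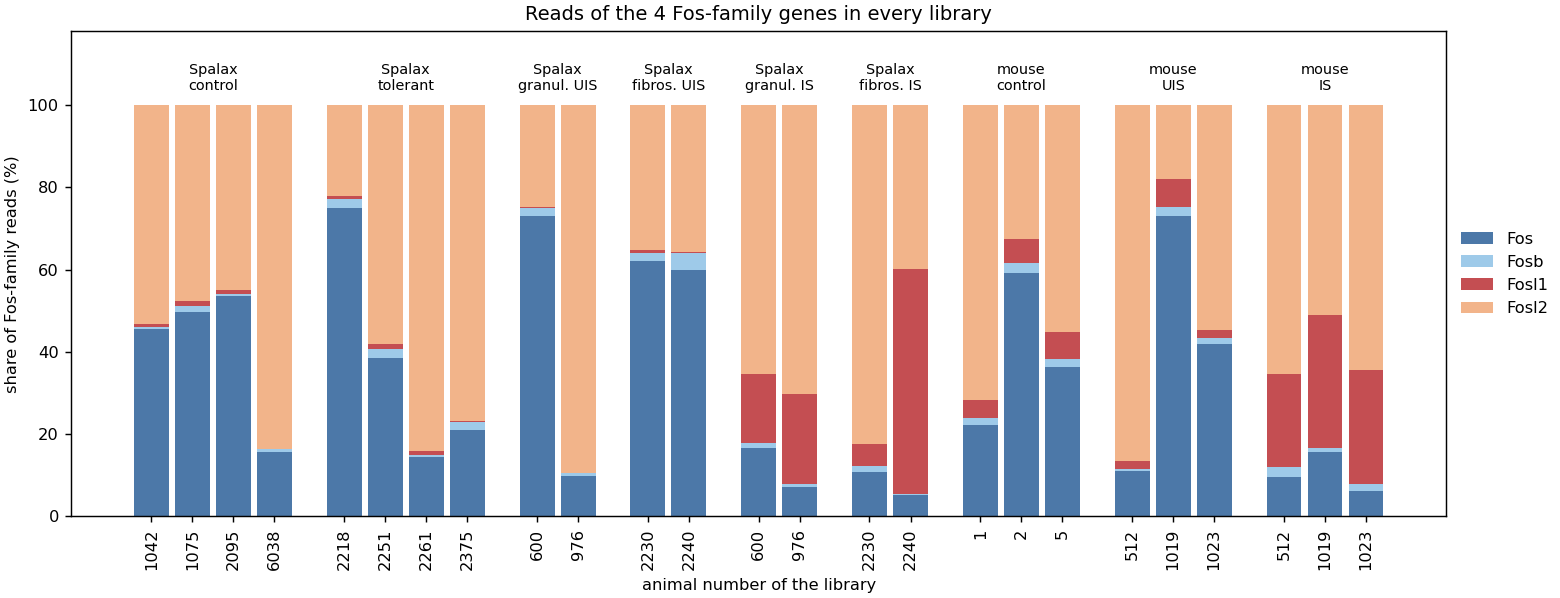
Share of the reads of the 4 Fos-family genes (y axis, percent) in each of the 25 libraries, stacked and grouped by tissue, with the animal number below each bar. The Fosl1 segment is at most 1.24% in Spalax muscle and at most 6.91% in mouse muscle, and 5.37 to 54.8% in the 7 tumors.

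Among the Jun genes, Junb rose in Spalax fibrosarcoma. UIS held 783 (2230) and 849.8 (2240) and the tumors 1998 and 2104, a difference of 1.33 (SE 0.21, limma adjusted p = 0.014). The granulomas of 600 and 976 held 2679 and 1805, above the UIS values of 1583 and 867, with a difference of 0.91 (SE 0.44, adjusted p = 0.181) that was not called. In mouse the tumors held 993, 993 and 1285 and UIS 805, 781 and 1149.9 in 512, 1019 and 1023, so the groups overlapped (0.27, SE 0.25, adjusted p = 0.412). Junb was nevertheless higher in the tumor in 7 of 7 animals, by 0.16 to 1.35. The rise in Spalax fibrosarcoma exceeded that in mouse by 1.06 (SE 0.35, unadjusted p = 0.014, adjusted p = 0.124), which missed the threshold. DESeq2 called this difference (1.10, adjusted p = 0.0329) and edgeR did not.

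Jun, the strongest activator of its family and a member of the network that the study built around the extracellular matrix, fell in granuloma. UIS held 5681 (600) and 8784 (976), the tumors 1497 and 972, and the difference was -2.55 (SE 0.41, limma adjusted p = 0.0158). The adjusted p was 0.0534 without UIS 976 and 0.0833 without IS 976. The 8 control and tolerant libraries held 2403 to 6684, so UIS 976 lay above all of them and UIS 600 below control 1042 alone. In Spalax fibrosarcoma, UIS held 2249 and 2217 and the tumors 1339 and 2758, with overlap. In mouse, UIS held 2553 to 3474 and the tumors 1872 to 4464, with overlap.

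Jund was not called in any tumor. In fibrosarcoma IS 2230 it reached 6551, the highest of all libraries, while IS 2240 held 1052, close to the UIS values of 1444 and 1081. The granulomas of 600 and 976 held 2392 and 1328 and UIS 879 and 970.5, without overlap (0.95, SE 0.40, adjusted p = 0.141). In mouse the tumors held 606 to 837 and UIS 544 to 1237. Of the 2 Spalax fibrosarcomas, that of 2230 held more Jund and that of 2240 more Fosl1.

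Egr1 fell in Spalax fibrosarcoma, from 654 and 769.8 in UIS to 362 and 317 in the tumors of 2230 and 2240. The difference was -1.06 (SE 0.26, limma adjusted p = 0.0378), with an adjusted p of 0.0727 with the animal as a block and 0.537 in 1 model over all Spalax libraries. Scaled by total reads it was -0.26 (adjusted p = 0.484), where the median of all genes moved to 0.83. In granuloma it was 1105 and 446 in the tumors and 2231 and 990.5 in UIS of 600 and 976, with overlap (-1.08, SE 0.62, adjusted p = 0.245, and -1.67, adjusted p = 0.175, without UIS 976). Mouse tumors held a narrow range of 1039 to 1219.8, and UIS held 102 (512), 1219 (1019) and 1756 (1023).

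Atf3, a stress-induced repressor, fell in mouse tumors. UIS of 512, 1019 and 1023 held 452, 1089.5 and 335 and the tumors 211, 247 and 163, with no overlap, and the difference was -1.42 (SE 0.48, limma adjusted p = 0.0496). This call lies at the threshold and was lost in 10 of 15 alternative fits (adjusted p up to 0.559), with the direction kept in all 15. Without UIS 1019 the difference was -0.93 (adjusted p = 0.0933), and without UIS 512 it was -1.56 (adjusted p = 0.071). The Spalax tumors held 337 to 634 and their UIS muscle 334 to 2222. Ier2 was not called, with 357 to 759 in the 7 tumors and 107 to 656 in the UIS libraries.

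Genes of the surrounding pathway came from lists of names. The lists were drawn up with earlier results of these data known, so they may not be independent of these data. Counts are of limma calls. Of the genes known to carry AP-1 sites, 16 of 21 tested rose in granuloma, 13 of 19 in Spalax fibrosarcoma and 14 of 20 in mouse tumors. Over all genes tested, 1718 of 14735, 2550 of 14696 and 3469 of 15220 were called higher. Lower calls among the listed genes numbered 0, 0 and 1. There were 0, 0 and 1 at an unadjusted p under 0.05, and the same numbers by edgeR and DESeq2. The rising count was 10 to 15 in granuloma and 11 to 15 in mouse when 1 library was left out. In Spalax fibrosarcoma it was 0 without UIS 2230 or UIS 2240, and without IS 2240 there were 12 rising and 2 falling. The median differences were 4.76, 3.30 and 2.98, beside -0.01, 0.03 and 0.11 over all genes. Among the rises in granuloma were Mmp3 (10.39, SE 0.71, adjusted p = 0.00492) and Mmp10 (7.93, SE 0.86, adjusted p = 0.00795), enzymes that cut matrix proteins. Mmp10 was at 0 in both UIS libraries, so its fitted value depends on the pseudocount and is no bound.

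In Spalax fibrosarcoma Mmp3 rose by 8.53 (SE 1.65, adjusted p = 0.0217), the collagenase gene Mmp13 by 7.10 (SE 0.96, adjusted p = 0.00986) and Plaur, the urokinase receptor, by 6.12 (SE 0.99, adjusted p = 0.0144). In mouse the leaders were the chromatin protein gene Hmga2 (7.04, SE 1.72, adjusted p = 0.0177), osteopontin (Spp1, 6.38, SE 1.33, adjusted p = 0.0106) and the cytokine Lif (5.55, SE 1.07, adjusted p = 0.00848). The 1 gene that fell was Nqo1, a quinone reductase, in mouse (-3.18, SE 0.41, adjusted p = 0.00284). Its response was also the 1 called difference between species among the listed genes (4.72 higher in Spalax fibrosarcoma, SE 0.65, adjusted p = 0.0128). Macrophages and neutrophils also express several of these genes. Macrophage markers summed to 999 to 2523 in UIS of tumor-bearing Spalax and to 7827 to 32013 in their tumors, and neutrophil markers to 194 to 2903 and 1214 to 7298. In mouse both sums overlapped between UIS and IS, with 731 to 5945 and 4306 to 37632 for macrophage markers and 314 to 14896 and 406 to 1719.5 for neutrophil markers. Their part in these rises was not tested.

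Other immediate early genes also moved in both directions. Of those tested, 6 of 36 rose and 3 fell in granuloma, 5 of 35 rose and 6 fell in Spalax fibrosarcoma, and 10 of 35 rose and 7 fell in mouse tumors. With 24.3%, 36.3% and 45.1% of all genes called, these counts do not set the list apart. Scaled by total reads, which moves the median of all genes up, the splits were 9 and 0, 9 and 4, and 19 and 3. Thus no fall in granuloma, including those of Nr4a1 and Dusp1 below, was called with that scaling. The rises in granuloma also lost their calls in some fit with 1 library left out. Without UIS 2230 or UIS 2240 no listed gene kept its call in Spalax fibrosarcoma. Nr4a1, an orphan nuclear receptor, fell in each tumor type, with differences of -2.71 (SE 0.58, adjusted p = 0.0293), -3.91 (SE 0.39, adjusted p = 0.00563) and -2.97 (SE 0.54, adjusted p = 0.00706). Ptgs2, the inducible cyclooxygenase, rose in granuloma by 5.61 (SE 1.03, adjusted p = 0.0206) and in mouse by 6.08 (SE 1.47, adjusted p = 0.0171). Among other risers were Egr4 in granuloma (4.85, SE 1.14, adjusted p = 0.0362, with a UIS mean of 0.603), Arc and Plk3 in Spalax fibrosarcoma (4.19, SE 0.53, adjusted p = 0.00855, and 2.86, SE 0.44, adjusted p = 0.013), and Egr3 in mouse (3.61, SE 1.02, adjusted p = 0.0288). The phosphatase gene Dusp1 fell in granuloma (-1.85, SE 0.46, adjusted p = 0.0419), Npas4 and Gadd45b fell in Spalax fibrosarcoma (-4.18, SE 0.60, adjusted p = 0.0113, and -2.48, SE 0.39, adjusted p = 0.0138), and Gadd45g and Btg2 fell in mouse (-3.53, SE 0.63, adjusted p = 0.00685, and -2.31, SE 0.48, adjusted p = 0.0102).

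Of the other bZIP partners of Fos and Jun, Batf and Jdp2 rose in all 3 tumor types. Batf, a factor of immune cells, rose by 3.69 (SE 0.96, adjusted p = 0.0466), 4.21 (SE 0.59, adjusted p = 0.0107) and 2.56 (SE 0.81, adjusted p = 0.0406) in granuloma, Spalax fibrosarcoma and mouse. Jdp2, a repressor that pairs with Jun, rose by 2.83 (SE 0.55, adjusted p = 0.0228), 2.61 (SE 0.29, adjusted p = 0.00691) and 1.92 (SE 0.46, adjusted p = 0.0172). The small Maf gene Mafk fell in granuloma (-2.68, SE 0.63, adjusted p = 0.036) and mouse (-2.17, SE 0.60, adjusted p = 0.0263), and Maff rose in Spalax fibrosarcoma (1.90, SE 0.49, adjusted p = 0.0417). In total 2 of 12 partners rose and 1 fell in granuloma and in mouse, and 3 of 12 rose in Spalax fibrosarcoma, where 0 fell (1 at an unadjusted p under 0.05, 0 by edgeR and 1 by DESeq2). These counts lie close to or below the share of all genes called. Scaled by total reads 3, 7 and 4 rose and 0 fell, and no call of a partner was left in mouse without IS 1019, IS 1023 or UIS 1023, or in granuloma without UIS 976.

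The second question was whether muscle away from the tumor differed from untreated muscle. In Spalax, Egr1 was the member with the largest difference. Control libraries 1042, 1075, 2095 and 6038 held 81.7, 404, 106 and 23.9, and UIS libraries of 600, 976, 2230 and 2240 held 2231, 990.5, 654 and 769.8. All UIS libraries were higher than all controls. The difference was 3.40 (SE 0.74, limma adjusted p = 0.157), or 10.6-fold. Fosb held 9.94, 17.1, 7.48 and 4.97 in the controls and 113, 31.8, 44.1 and 116 in UIS, again all higher. Its difference of 2.74 (SE 0.55, adjusted p = 0.157) was 6.67-fold. The control values of Fosb rested on 5 to 19 reads.

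Limma called 0 of the 10 members here and 0% of 13909 genes. At an unadjusted p under 0.05 there were 3 members (Egr1 and Fosb higher, Jund lower) against 16.6% of all genes, and 2 did not overlap against 12.7%. By edgeR 0 members were called. DESeq2 called 2, Egr1 (2.92, adjusted p = 0.00363) and Fosb (2.95, adjusted p = 0.000348). Both genes are in the list that the study drew from this same comparison, so their difference is no independent evidence of that list's direction. With the male 2230 left out, which leaves females on both sides, Egr1 differed by 3.62 (adjusted p = 0.222) and Fosb by 2.93 (adjusted p = 0.208). Without UIS 976 they differed by 3.42 (adjusted p = 0.129) and 3.08 (adjusted p = 0.0711). Index type, anesthesia and group cannot be told apart in this comparison. The 5 neutrophil markers summed to 67.4 to 178 in controls and 194 to 2903 in UIS, and the 2 erythroid markers found to 6.63 to 63.6 and 150 to 378, both without overlap. The 5 endothelial markers went the other way, with 10695 to 14234 in controls and 8793 to 10531 in UIS, also without overlap. The part of these cells in the differences was not tested.

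Fos held 777, 613, 904 and 134 in the controls and 4104, 412, 1417 and 1622 in UIS, with overlap (1.51, SE 0.74, adjusted p = 0.335). Without control 6038, the lowest, the difference was 0.89 (adjusted p = 0.505), and without UIS 976 it was 2.10 (adjusted p = 0.169). Fosl2 held 589 to 911 in the controls and 803 to 3805 in UIS (0.95, SE 0.43, adjusted p = 0.304), and without UIS 976, the highest, the difference was 0.48 (adjusted p = 0.304). Jund was lower in UIS, at 879 to 1444 against 1291 to 2881, with overlap (-0.72, SE 0.27, adjusted p = 0.25). Jun, Junb, Atf3, Ier2 and Fosl1 overlapped and had unadjusted p of 0.573 or more. Of the other listed genes, 0 of 90 tested were called by limma, 13 had an unadjusted p under 0.05, and edgeR called 0 and DESeq2 2. The smallest unadjusted p among other immediate early genes belonged to Myc (1.26, SE 0.33, adjusted p = 0.188), and among the partners to Jdp2 (-1.06, SE 0.30, adjusted p = 0.204).

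**Figure D4:**
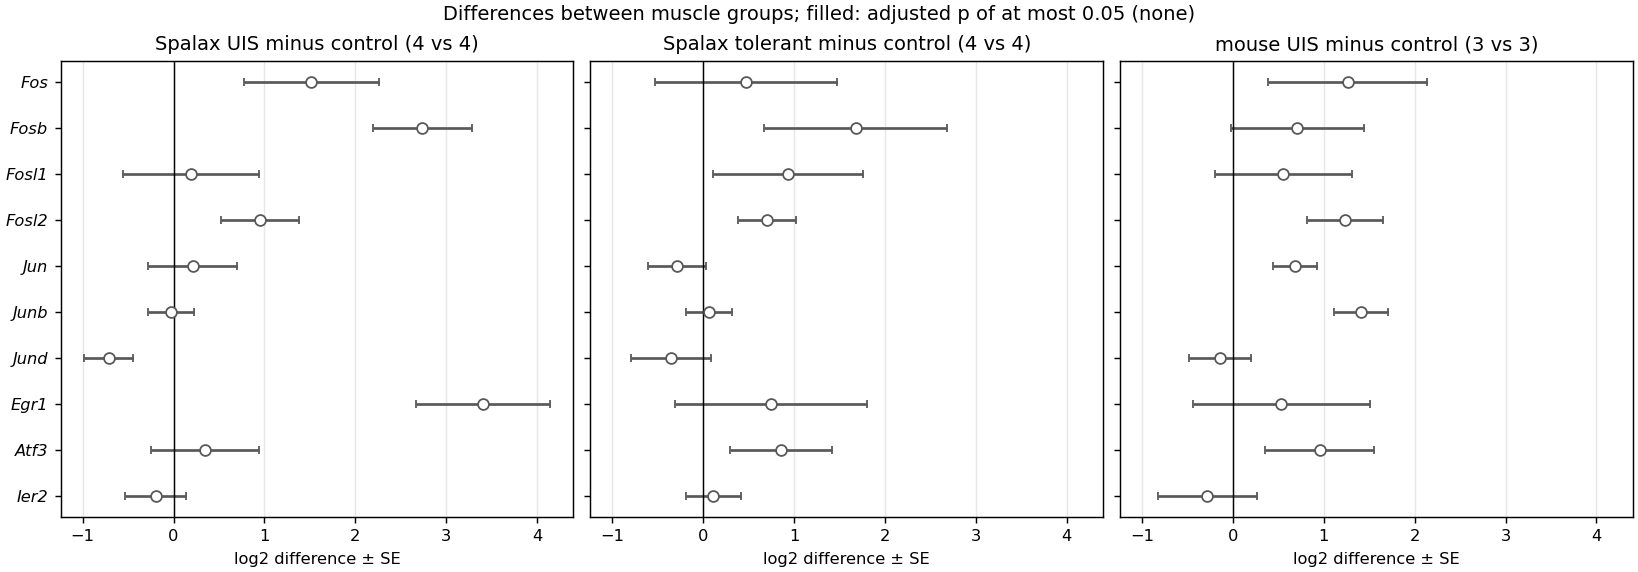
Log2 difference (x axis, log2 of value + 1) with its standard error for the 10 genes between muscle groups, namely Spalax UIS minus control, Spalax tolerant minus control, and mouse UIS minus control, on 1 common axis. No point is filled, as limma called 0 of the 10 genes in each panel; Egr1 (3.40) and Fosb (2.74) in the first panel lie farthest from 0.

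The third question concerned tolerant Spalax, which shared the carcinogen with the tumor-bearing animals but grew no tumor. In their muscle Fos held 4120.2 in 2218, 983 in 2251, 105 in 2261 and 503 in 2375, a 39.2-fold span, where the controls spanned 6.73-fold. Egr1 held 850.2, 311, 75.6 and 33.5 in the same animals and Fosb 127, 52.5, 2.19 and 46.9, the 2.19 resting on 2 reads. Egr1 spanned 25.4-fold here and 16.9-fold in the controls, and the spans of the groups were not tested against each other. Animal 2218 was highest for Fos, Fosb, Egr1, Atf3 (3053) and Ier2 (690.2). Animal 2261 was lowest for Fos, Fosb, Fosl2 (609.9), Junb (687), Jund (739) and Atf3 (367). Some cell markers also spread widely. Fibroblast markers summed to 7699 to 172563 (controls 20722 to 35937), macrophage markers to 842 to 11541 (1519 to 2972) and neutrophil markers to 33.5 to 1045 (67.4 to 178). Endothelial markers did not spread more than in controls, but their sum was lower in every tolerant library (7992 to 10463 against 10695 to 14234). The part of tissue makeup in the spread of the members was not tested.

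Against controls limma called 0 members and 0% of 14020 genes, 0 members had an unadjusted p under 0.05 (5.23% of genes), and edgeR and DESeq2 called 0. For 0 members did the libraries separate, against 3.86% of genes. The differences were 0.47 for Fos (SE 1.00), 0.74 for Egr1 (SE 1.05) and 1.68 for Fosb (SE 1.01), with adjusted p of 0.923 or more. These SEs leave room for differences of either sign in each of these genes. Against UIS of tumor-bearing animals limma called 0 members and 0.00713% of 14029 genes, and edgeR and DESeq2 called 0. 1 member, Egr1, had an unadjusted p under 0.05, beside 5.12% of all genes. It was 2.66 higher in UIS (SE 0.90, adjusted p = 0.88), with tolerant 2218 inside the UIS range. For 0 members did the libraries separate, against 4.11% of genes. The comparisons with controls and with tolerant muscle share the UIS libraries, so they are not independent. Tolerant and UIS libraries differed in index type and in side of the neck, which cannot be told apart from the group. Tolerant and control libraries also differed in side. Sex was unevenly split between the tolerant animals and both other groups. Without 2251, the library between muscle and tumor, Egr1 differed from UIS by 2.97 (adjusted p = 0.866). Against controls, Fosl2 and Atf3 differed by 0.70 and 0.86 with it and by 0.60 and 0.89 without it (adjusted p of 0.884 or more), and Fosb did not pass the filter on low values without it.

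In mouse the muscle comparison picked out other members. Junb held 447, 261 and 327 in controls 1, 2 and 5 and 805, 781 and 1149.9 in UIS of 512, 1019 and 1023, without overlap. The difference was 1.41 (SE 0.30, limma adjusted p = 0.331). Fosl2 (660.0, 295 and 457 against 1625, 669 and 1072) and Jun (2115, 1784 and 1572 against 3474, 2769 and 2553) were also higher in every UIS library, by 1.23 (SE 0.42, adjusted p = 0.441) and 0.68 (SE 0.24, adjusted p = 0.441). Without UIS 512 the differences of Junb, Fosl2 and Jun were 1.49 (adjusted p = 0.204), 0.92 (adjusted p = 0.418) and 0.55 (adjusted p = 0.377). Egr1 and Fosb overlapped, since UIS 512 held 102 and 10.1, below all controls (353 to 535 and 15.6 to 22.1).

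Limma called 0 members and 0% of 14792 genes, 3 members had an unadjusted p under 0.05 against 11% of all genes, and 3 did not overlap against 21.2%. By edgeR 0 members were called, and by DESeq2 1 (Junb, adjusted p = 0.00595). The anesthesia was the same in both groups here, and index type and group cannot be told apart. Fat tissue differed: brown fat markers summed to 36167 to 59062 in control and 924 to 20965 in UIS, and white fat markers to 81689 to 120848 and 6273 to 71346, without overlap. Neutrophil markers summed to 49.7 to 69.3 and 314 to 14896. Their part in the difference was not tested. Among other immediate early genes Gadd45g (1.32, SE 0.27, adjusted p = 0.331) and Cyr61 (1.01, SE 0.24, adjusted p = 0.344) had the smallest p.

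Whether the tumor responses of the members differed was asked by interaction terms. Between Spalax fibrosarcoma and granuloma limma called 0 members and 0% of 15584 genes, 1 member (Jun) had an unadjusted p under 0.05 beside 4.92% of genes, and edgeR and DESeq2 called 0. Between Spalax fibrosarcoma and mouse limma called 0 members and 3.95% of 11085 shared genes, and 1 member (Junb) had an unadjusted p under 0.05 beside 21.6% of genes. By edgeR 0 members were called and by DESeq2 1, again Junb. For Egr1, which fell in Spalax fibrosarcoma and was 0.88 higher (SE 1.02) in mouse tumors, the responses differed by -1.94 (SE 1.39, adjusted p = 0.464). The mouse value rested on animal 512, with differences of 3.40 in 512, 0.001 in 1019 and -0.76 in 1023. For Fosb the responses differed by -2.51 (SE 1.30, adjusted p = 0.306). Neither difference was called.

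Finally, it was asked whether the members varied together between animals of the same group. Deviations from the group mean were compared over the 12 Spalax muscle libraries, each from another animal. Of 45 pairs, 35 correlated positively. By Pearson's r with an exact two-sided permutation of libraries within groups 0 pairs passed after Benjamini-Hochberg adjustment over the 45 pairs, the smallest adjusted p being 0.0798. By Spearman's rho 1 pair passed, Fos and Ier2 (rho = 0.90, permutation p = 0.00101, adjusted p = 0.0456). For this pair r was 0.80 (permutation p = 0.00709, adjusted p = 0.0798), and 0.78 without the 2 libraries farthest from the Fos median. For Fos and Fosb r was 0.85 (permutation p = 0.00448, adjusted p = 0.0798) and rho 0.71 (adjusted p = 0.122), with r = 0.68 without the 2 farthest libraries. For Egr1 and Ier2 r was 0.73 (adjusted permutation p = 0.0798) and rho 0.78 (adjusted p = 0.122).

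For Fosl2 and Jun r was 0.77 (permutation p = 0.00326, adjusted p = 0.0798) and rho 0.63 (adjusted p = 0.122), with r = 0.75 without the 2 farthest libraries, and the pair did not pass. The UIS libraries of granuloma and fibrosarcoma animals were taken here as 1 group of 4, so r includes the difference between those animals, in which Jun (5681 and 8784 against 2249 and 2217) and Fosl2 (1389 and 3805 against 803 and 967) were both higher in the granuloma animals. With these animals as separate groups of 2, an alternative chosen after seeing the data, r was 0.56 for Fosl2 and Jun (adjusted permutation p = 0.258), 0.85 for Fos and Fosb and 0.84 for Fos and Ier2. With that grouping 0 pairs passed by r or by rho, and the adjusted permutation p of rho for Fos and Ier2 was 0.133. Without the 2 farthest libraries of the first gene, 12 of the 45 pairs changed the sign of r. Within each group all libraries carry the same index type, so the deviations hold no difference between index types. Sex and sampling time still varied within the tolerant and UIS groups.

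**Figure D5:**
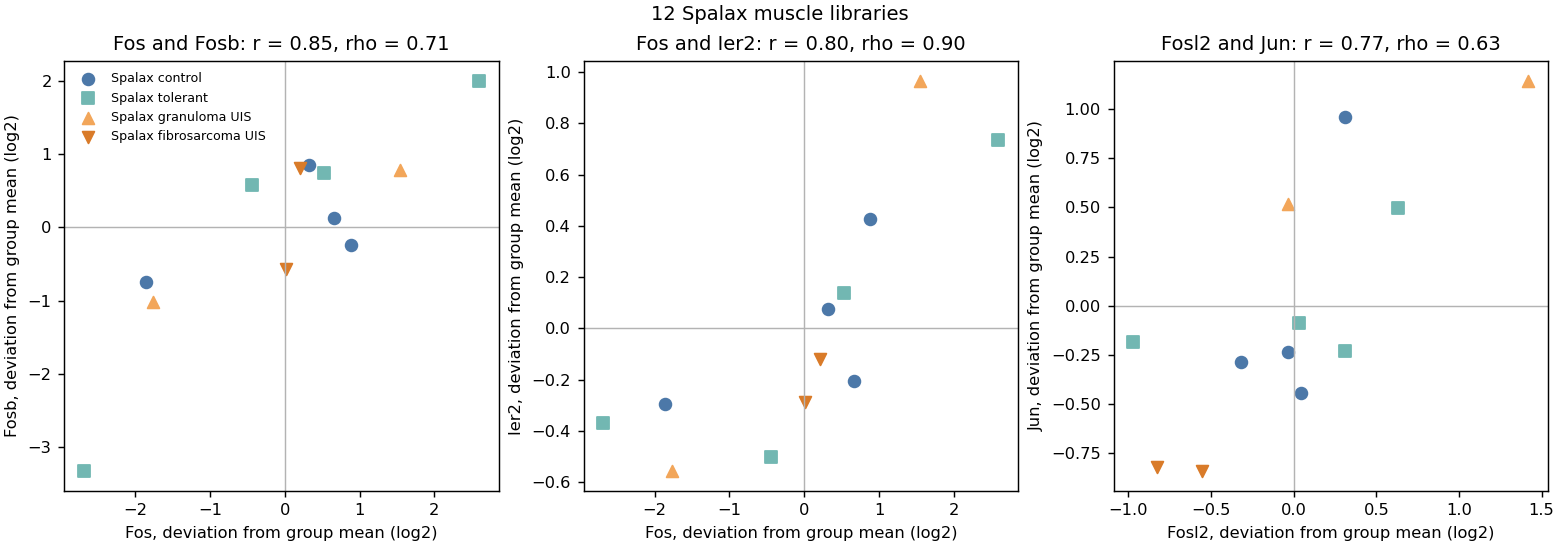
Deviation from the group mean (log2 of value + 1) of Fos against Fosb, Fos against Ier2 and Fosl2 against Jun, as 1 point for each of the 12 Spalax muscle libraries, with symbols for the groups. Pearson's r is 0.85, 0.80 and 0.77, none of which passed after adjustment, and tolerant 2218 and 2261 are the extremes for Fos.

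Over the same 12 libraries, 14435 genes were ranked by r with Fos, Jun and Fosl1, as a description with no test. Most like Fos were Cryz (0.95), Steap3 (0.90), Dusp1 (0.88), Nudt11 (0.87) and Klf2 (0.86), of which Dusp1 and Klf2 are themselves immediate early genes. Most like Jun were Zbtb2, Vps11 and Tbck (0.95, 0.95 and 0.95), Lrwd1 (0.92) and Znf316 (0.92). Most like Fosl1 were Slc38a10 (0.94), Hes6 (0.93), Dcakd (0.92), Sertad1 (0.91) and Grp (0.89), where the Fosl1 values rest on 1 to 41 reads per library.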

How the data were processed

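RNA-seq of 16 Spalax and 9 mouse libraries was used. Per the study's methods, single-end reads of stranded libraries were trimmed with Trimmomatic, aligned with TopHat2 (the submitters' processing notes name TopHat 1.4.1, HTSeq, DESeq and GRCm38) to the published Spalax genome or an NCBI mouse genome, and counted with htseq-count. The deposited signal of a gene is its read count after the authors' scaling, in which a library has 1 size factor. In the column of fibrosarcoma UIS 2230 some rows of the deposited Spalax table hold other text, pieces of gene names, because each lower-case t was replaced by a comma. The t was restored in 2387 names and values were read from the line's end. Whole reads were recovered by division (100% of values within 0.1 of a whole number), with 17025447 to 31179183 reads per library.

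Groups were compared on log2(value + 1) with limma 3.58.1 (R 4.3.3, eBayes with a trend, no covariates). A gene was tested where the number of libraries at 10 or above reached the size of the smaller group. Interaction terms compared responses. The call threshold was 0.05 after Benjamini-Hochberg adjustment. Fold changes on this scale understate the change of low genes. On the recovered reads, edgeR 4.0.16 (quasi-likelihood) and DESeq2 1.42.0 (Wald) were run as alternatives. Other pseudocounts (0.1 and 5), scaling by total reads or TMM, no filter, 1 model over all libraries, the animal as a block, and leaving out each library were also tried. Fits were tested on simulated data. IS and UIS libraries of 1 animal are paired by the animal number, and deviations of same-animal libraries correlated at 0.01 (granuloma), 0.00 (fibrosarcoma) and 0.05 to 0.18 (mouse). No replicates were copies (chi-square per degree of freedom of at least 45.0 over 25 pairs). Each library is 1 animal's tissue on 1 side.

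The members and gene lists were chosen with earlier results of these data known. Named are all 10 members, from each list up to 3 called genes with the largest rise and 3 with the largest fall (with no call, those of smallest p), and the 5 genes most like Fos, Jun and Fosl1. Of these, the text gives the leading ones, and some are not reported here. Mouse gene models are of GENCODE vM21. Intervals of counting error are not given, reads carry no molecular identifiers, and low values are limited by counting error. Figures were drawn with matplotlib 3.10.9.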

Additional observations from a re-analysis of the deposited data

Results flagged for a closer look

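In 3 of 30 sets of 4 libraries (10 genes in Spalax control, tolerant and tumor-bearing UIS muscle) 1 library lay far from the other 3, by a gap above Dixon's 95% critical value for its share of the whole range. Chance gives about 1 in 20 where values are normally distributed, which was not tested. The ratio was taken on normalised counts and not on their log2, and each flagged library was the highest of its set. The 3 flags are therefore not read against that rate. Jun in control 1042 was 6684, against 2921 in the next library (gap 0.905 of the range). Jun in tolerant 2375 was 3971, against 2652 (0.841). Junb in granuloma UIS 600 was 1583, against 867 (0.896).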

How the results depend on the processing

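The number of members called kept within 1.5 times its value under the alternatives except as follows. Against Spalax control UIS, DESeq2 called 2 members, in mouse control against UIS 1, and for the species difference 1, where limma called 0. In granuloma 4 were called with scaling by total reads, and 1 to 3 when 1 library was left out. In Spalax fibrosarcoma 3 were called in 1 model over all Spalax libraries (Fos adjusted p = 0.188, Egr1 0.537), and 0 to 7 when 1 library was left out. In mouse tumors 4 were called with scaling by total reads, 1 with a pseudocount of 0.1, without the filter or with TMM, and 1 to 3 when 1 library was left out. With the animal as a block, 2, 4 and 3 members were called in granuloma, Spalax fibrosarcoma and mouse. The block ended the call of Egr1 in fibrosarcoma, added that of Fosl2 in mouse and changed no other. Over all genes, limma, edgeR and DESeq2 called 0, 0 and 516 between Spalax control and UIS, 0, 0 and 60 between control and tolerant, 1, 1 and 38 between tolerant and UIS, 3581, 2978 and 5383 in granuloma (6314 in 1 model), 0, 0 and 342 between mouse control and UIS, 0, 0 and 88 for the tumor type difference (3 in 1 model), and 438, 391 and 1711 for the species difference (1206 in 1 model, 38 with the block). Scaling by total reads moved the median of all genes by 0.72 in granuloma, 0.83 in Spalax fibrosarcoma and 1.16 in mouse tumors. Relative to it Fosl1 was 6.33, 5.88 and 3.72 higher. It also turned the sign of Jun and Atf3 in fibrosarcoma and of Jund in mouse, all with an unadjusted p over 0.2 before. Of 540 refits of 36 single-gene differences 500 gave the same outcome, called or not, 27 lost a call, 13 gained one and 0 reversed. Most of these differences were not called in the main fit, so the 500 are no measure of how stable the calls are. Only called differences can lose a call, as Atf3 in mouse tumors did in 10 of 15 refits and Egr1 in Spalax fibrosarcoma in 5 of 13. The cause of these changes was not tested. With 2 libraries a side a left-out library leaves a lone one, which is assumed to vary like the others. Fosl1 and Fosb in Spalax muscle rest on few reads.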

Other observations

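Genes upstream of the members and heat shock genes were counted as well. Of the kinases and factors upstream of immediate early genes, 4 of 25 tested rose and 3 fell in granuloma, 4 of 24 rose and 4 fell in Spalax fibrosarcoma, and 7 of 25 rose and 4 fell in mouse tumors, by limma after adjustment. With 24.3%, 36.3% and 45.1% of all genes called, these counts do not set the list apart. Scaled by total reads the splits were 7 and 0, 12 and 3, and 12 and 0. In granuloma the rises of this list, and those of the heat shock genes below, lost their calls in some fit with 1 library left out. Without UIS 2230 or UIS 2240 no gene of these lists kept its call in Spalax fibrosarcoma. Nab2, a corepressor of Egr1, rose in all 3 tumor types, by 2.43 (SE 0.50, adjusted p = 0.0264), 1.98 (SE 0.54, adjusted p = 0.0494) and 2.39 (SE 0.47, adjusted p = 0.00886). Nras rose and Hras fell in Spalax fibrosarcoma (2.06, SE 0.23, adjusted p = 0.00678, and -1.92, SE 0.32, adjusted p = 0.015). Srf, which drives Fos and Egr1 through the serum response element, fell there (-1.78, SE 0.47, adjusted p = 0.0461).

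Of the heat shock genes, 1 of 9 rose and 3 fell in granuloma, 2 of 9 rose and 1 fell in Spalax fibrosarcoma, and 2 of 12 rose and 2 fell in mouse tumors, with 4 and 1, 3 and 1, and 5 and 2 scaled by total reads. The shares of all genes called are those given above, and with 9 to 12 genes tested nothing is read about the list as a whole. Hsp90aa1 rose in all 3 (2.24, SE 0.45, adjusted p = 0.025, then 2.56, SE 0.67, adjusted p = 0.0438, and 2.08, SE 0.38, adjusted p = 0.00696). Bag3, abundant in muscle, fell in granuloma (-1.98, SE 0.32, adjusted p = 0.0159) and mouse (-2.05, SE 0.27, adjusted p = 0.00299). In the muscle comparisons limma called 0 of these genes, as in the other lists, and 0 heat shock genes had an unadjusted p under 0.05, while by edgeR and DESeq2 0 heat shock genes were called.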
